A study of Mus musculus with 2 samples.

Results

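The regions described here are stretches of open chromatin between genes that were called in mast cells lacking Dnmt3a and not in wild-type mast cells. The 2 peak lists were merged, and peaks that overlapped by 1 bp or more formed 1 region. A merged region was a member if it held a peak of the Dnmt3a knockout list, held none of the wild-type list, overlapped no protein-coding gene and lay more than 1 kb from every protein-coding gene. This gave 1983 members among 23364 merged regions on chromosomes 1 to 19 and X. Between genes, 6129 regions were found in all, of which the members made up 32.4%, regions called in the wild-type list alone 20% (1223) and shared regions the other 2923. Over the whole genome 28% of regions were knockout-only. The members were chosen by the peak calls themselves, so that their peak values and their number are descriptions with no test. Absence from the wild-type list means that no peak was called there, not that the wild-type signal was 0.

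Each group was 1 culture of bone marrow-derived mast cells (BMMC), from DNMT3A-KO mice or from WT littermates matched for age and sex, all females. The marrow donors were aged 3 weeks in one label and 3 to 4 weeks in another. The cells grew for 4 weeks with interleukin 3 until over 95% carried Kit and the IgE receptor alpha chain on their surface, and neither culture was treated. How Dnmt3a was deleted, in which cells and from which exons, and how many mice gave marrow to a culture, is not stated in the labels. ATAC-seq was used, in which the Tn5 transposase cuts accessible DNA and adds sequencing adapters. With 1 library per genotype there was no replicate and no test, and every interval in the text (95%, exact Clopper-Pearson) covers counting error only. The lists do not give the total reads, but the fold enrichment and −log10 p of each peak return its summit pileup, the number of overlapping fragments at its highest base. Median pileup was 9 in both complete lists, of 19684 knockout and 17170 wild-type peaks. At the Dnmt3a gene the knockout list held 5 peaks and the wild-type list 6, and no member was assigned to it.

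Dnmt3a is a de novo DNA methyltransferase that adds methyl groups to cytosines of CpG dinucleotides. Open chromatin away from genes often marks enhancers, which bind transcription factors and act on promoters at a distance, or starts of non-coding RNAs. Methylated CpGs are common between genes and scarce at active enhancers and at CpG-rich promoters. Mast cells are tissue cells of the blood lineage that store histamine and proteases in granules and release them when IgE on their surface meets antigen. Methylation and RNA were not measured in these libraries.

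Some members lay at starts of genes that do not encode proteins, and there the DNA itself can be shown. The RefSeq windows used (GRCm38.p6, the assembly that mm10 names) run from 250 bases before to 50 bases after a start. Of the members, 48 (2.42%, interval 1.79 to 3.20) overlapped one. So did 29 wild-type-only (2.37%, 1.59 to 3.39) and 113 shared intergenic regions (3.87%, 3.20 to 4.63). In the counts below each window is used once per class. The windows of the 3 strongest of the 48 members are printed below. After them come the windows of Morrbid, Snhg12 and Firre, chosen after their values were seen because these long non-coding RNAs are well known. Each runs 5′ to 3′ in the direction of transcription, and capitals mark the bases inside the knockout-only region.

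Gm32645 promoter, chr14:25401484-25401783, plus strand, 228 bases inside the member: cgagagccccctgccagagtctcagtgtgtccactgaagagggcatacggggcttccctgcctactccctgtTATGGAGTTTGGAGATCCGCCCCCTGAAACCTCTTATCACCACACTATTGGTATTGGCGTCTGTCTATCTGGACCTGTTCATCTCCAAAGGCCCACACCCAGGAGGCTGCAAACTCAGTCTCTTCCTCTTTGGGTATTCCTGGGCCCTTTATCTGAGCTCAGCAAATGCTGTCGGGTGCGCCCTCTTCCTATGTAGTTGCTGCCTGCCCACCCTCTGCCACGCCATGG
2310069B03Rik promoter, chr6:82881804-82882103, minus strand, 139 bases inside the member: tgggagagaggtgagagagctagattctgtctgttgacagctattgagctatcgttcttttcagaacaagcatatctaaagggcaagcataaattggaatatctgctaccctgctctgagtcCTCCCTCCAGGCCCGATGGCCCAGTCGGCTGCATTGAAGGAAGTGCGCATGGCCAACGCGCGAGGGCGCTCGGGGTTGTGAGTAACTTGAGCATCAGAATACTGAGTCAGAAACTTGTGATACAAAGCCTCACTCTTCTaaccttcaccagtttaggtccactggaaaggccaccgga
Gm34489 promoter, chr12:12420791-12421090, plus strand, 147 bases inside the member: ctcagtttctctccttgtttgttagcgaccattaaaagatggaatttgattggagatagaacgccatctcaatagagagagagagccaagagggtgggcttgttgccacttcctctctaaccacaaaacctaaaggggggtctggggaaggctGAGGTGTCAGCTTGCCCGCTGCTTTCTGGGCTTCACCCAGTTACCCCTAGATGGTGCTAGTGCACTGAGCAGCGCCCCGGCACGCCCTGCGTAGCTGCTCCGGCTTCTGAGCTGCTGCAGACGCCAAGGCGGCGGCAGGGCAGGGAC
Morrbid promoter, chr2:128429302-128429601, minus strand, 49 bases inside the member: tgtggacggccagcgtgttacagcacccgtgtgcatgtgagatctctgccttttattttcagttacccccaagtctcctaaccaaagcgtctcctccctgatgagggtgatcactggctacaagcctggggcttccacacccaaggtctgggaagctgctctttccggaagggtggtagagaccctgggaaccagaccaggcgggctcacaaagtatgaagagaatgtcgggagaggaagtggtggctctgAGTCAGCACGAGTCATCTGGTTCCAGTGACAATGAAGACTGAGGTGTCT
Snhg12 promoter, chr4:132308428-132308727, plus strand, 127 bases inside the member: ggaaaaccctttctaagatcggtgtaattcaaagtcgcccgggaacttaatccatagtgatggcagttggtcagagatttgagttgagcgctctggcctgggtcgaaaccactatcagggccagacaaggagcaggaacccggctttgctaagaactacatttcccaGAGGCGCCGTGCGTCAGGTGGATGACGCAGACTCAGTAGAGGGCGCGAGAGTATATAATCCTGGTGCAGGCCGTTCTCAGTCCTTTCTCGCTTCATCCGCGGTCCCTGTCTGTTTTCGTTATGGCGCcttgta
Firre promoter, chrX:50635272-50635571, minus strand, 100 bases inside the member: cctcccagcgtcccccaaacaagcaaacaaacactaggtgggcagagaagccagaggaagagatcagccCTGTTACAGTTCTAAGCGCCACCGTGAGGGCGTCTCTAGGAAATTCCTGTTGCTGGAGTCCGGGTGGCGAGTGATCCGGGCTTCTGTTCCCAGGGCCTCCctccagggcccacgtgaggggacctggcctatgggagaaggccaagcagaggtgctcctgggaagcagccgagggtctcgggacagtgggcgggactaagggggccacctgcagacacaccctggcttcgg

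The member at Gm32645, inside the longer non-coding gene Zmiz1os1, had a summit pileup of 15 and a −log10 q of 13.6. Its 228 bases hold the letters searched for GATA factors (AGATAA), E-box proteins (CANNTG), RUNX factors (TGTGGT) and ETS factors (AGGAAG), on one strand or the other. At 2310069B03Rik the pileup was 10 and the −log10 q 12.97, and the region holds the AP-1 letters (TGANTCA) and the ETS letters. The 147 bases of the Gm34489 member inside the window (pileup 10, −log10 q 12.2) hold none of the letters searched. RUNX and ETS matches stand in the window outside the member, and the rest of this member was not read. Morrbid, a long non-coding RNA known to restrain the pro-apoptotic gene Bcl2l11 in myeloid cells, had a member ending 1 bp from its start (pileup 10, −log10 q 8.30), with an E-box match in the overlapped bases. At Snhg12, a host gene of small nucleolar RNAs, the member (pileup 7, −log10 q 6.54) covered the start and held an E-box match. Firre, an X-linked RNA of nuclear organisation, had a member 82 bp before its start (pileup 7, −log10 q 7.14), with no match inside it. A match describes the letters only. The nearest wild-type peaks to these 6 members lay 9258 to 74171 bp away. Others of the 48 members stood close to a wild-type peak. These were at Gm40716 (36 bp), Gm26901 (37), B930059L03Rik (85), BB557941 (99), Gm16008 (126), Gm46298 (141), 2900024J01Rik (229), Gm13522 (281) and A630001O12Rik (579). The remaining members were at least 3027 bp away.

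Windows at members were poorer in CpG than windows at shared intergenic regions. The median ratio of observed to expected CpG was 0.382 in the 48 windows at members, 0.431 in 28 windows at wild-type-only regions and 0.575 in 111 at shared regions. It was 0.245 over all 11573 windows of genes that are not protein-coding. Windows with a GC content over 50% and a ratio over 0.6, counted here as CpG-rich, were 8 of 48 at members (16.7%, interval 7.48 to 30.2), 10 of 28 at wild-type-only (35.7%, 18.6 to 55.9) and 46 of 111 at shared regions (41.4%, 32.2 to 51.2). Among all windows 11.98% were CpG-rich for non-coding and 45.3% for protein-coding genes. A window overlapped by regions of several classes counts in each of them. BB557941 and Gm40716, both CpG-rich, count at members and at wild-type-only regions. Gm46298 and Gm26901 count at members and at shared regions. The interval of the members lies below that of the shared regions and overlaps that of the wild-type-only regions. Shared peaks were also higher, with a median pileup of 10 against 6 for members. The part of peak height in the CpG difference was not tested.

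**Figure D1:**
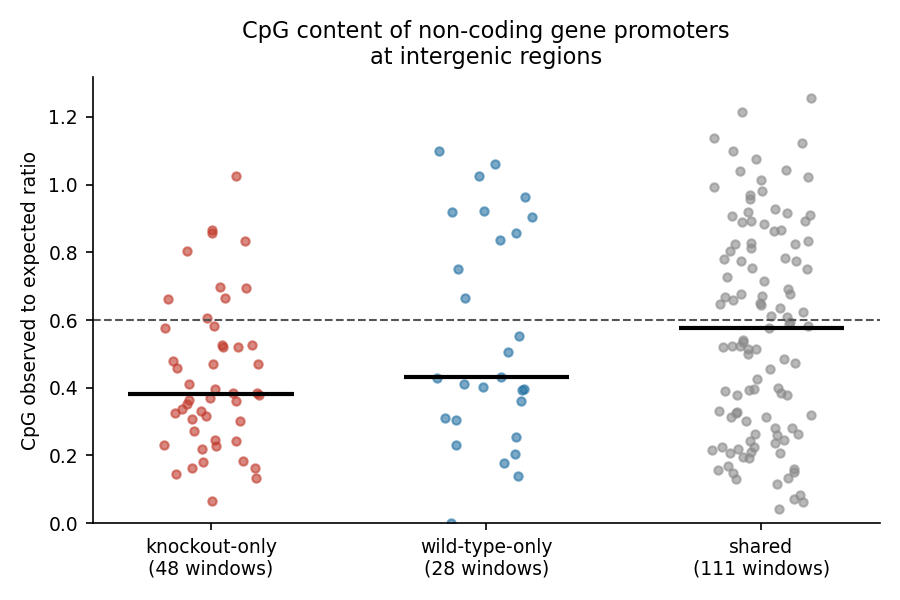
Each point is the 300-base promoter window of a gene that is not protein-coding, overlapped by an intergenic region of the class on the horizontal axis. The vertical axis is the ratio of observed to expected CpG, thick bars are medians (0.382, 0.431 and 0.575) and the dashed line is 0.6; most windows at members lie below it.

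The GATA letters stood in 13 of 48 windows at members (27.1%, interval 15.3 to 41.8), 4 of 28 at wild-type-only regions (14.3%), 13 of 111 at shared regions (11.7%) and 14.0% of all windows of non-coding genes (9.69% for protein-coding genes). ETS letters were found in 56.3% at members (41.2 to 70.5), 35.7% at wild-type-only, 44.1% at shared regions and 37.1% of all non-coding windows. For AP-1 these shares were 18.8% (8.95 to 32.6), 10.7%, 10.8% and 9.31%, and for RUNX 25%, 17.9%, 27.9% and 20.1%. The E-box letters of the mast cell factor MITF (CATGTG), which are also counted as an E-box, stood in 16.7% of windows at members and 18.96% of all. C/EBP letters (TTGCNNAA) were in 14.6% and 11.9%, and STAT letters (TTCNNNGAA) in 12.5% and 9.38%. The cyclic AMP element (TGACGTCA) was in 0 of the 48, where the interval reaches 7.40%, against 0.976% of all non-coding windows. A CTCF motif was in 1 window at members (2.08%) and in 0.553% of all, and the general E-box letters in 72.9% and 78.4%. Letters were counted anywhere in a window, inside the overlapping region or outside it. For GATA and ETS the members' interval lies above the share of all non-coding windows, and for the 8 other motifs it includes that share. The GATA letters stood in the bases inside the member at Gm32645, Gm38734, Gm40048, Gm40716, Gm35853 and Gm35922. At Gm46298, Gm42376, Gm33104, Gm35696, Gm9895, Gm30438 and Gm30728 they stood only outside the member. ETS letters stood inside the member at Gm32645 and only outside it at Gm46298, among others of each kind. Matches inside the regions alone were not compared between classes. The GATA and ETS intervals overlap those of windows at wild-type-only and shared regions. The member covered the start itself in 23 of the 48 windows.

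Members were mostly low and narrow peaks. Each held exactly 1 knockout peak. The median summit pileup was 6 (lowest 4, highest 27), the median local background 0.14 fragments, and the median fold enrichment in the authors' list 6.15. Median width was 112 bp, and 683 members (34.4%, interval 32.4 to 36.6) had the smallest width found, 100 bp. The −log10 q ran from 3.05 to 22.9 with a median of 6.48. Wild-type-only intergenic regions had the same median pileup of 6, a median width of 107 bp and a median −log10 q of 5.999, and shared ones 10, 201 bp and 10.1. For shared regions the pileup and −log10 q given in the text are those of the knockout peak. A pileup of at least 10 was reached by 214 members (10.8%, interval 9.46 to 12.2) and by 130 wild-type-only regions (10.6%, 8.96 to 12.5).

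At equal pileup, intergenic regions of the knockout list more often lacked a partner than those of the wild-type list. With a summit pileup of up to 5, 72.4% of knockout regions (748 of 1033, interval 69.6 to 75.1) had no wild-type peak, and 58.3% of wild-type regions (512 of 878, 55.0 to 61.6) no knockout peak. At 6 to 7 the shares were 57.0% and 40.1%, at 8 to 9 35.2% and 23.5%, and at 10 to 12 21.0% and 13.6%, each with intervals that do not overlap. At 13 to 16 they were 8.50% and 7.38%, with overlapping intervals. Of the highest regions, with a pileup of 17 or more, 13 of 484 knockout regions (2.69%, interval 1.44 to 4.55) and 2 of 375 wild-type regions (0.533%, 0.0647 to 1.91) were alone. The knockout list was the longer one, and a given pileup need not be equally strict in both libraries.

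**Figure D2:**
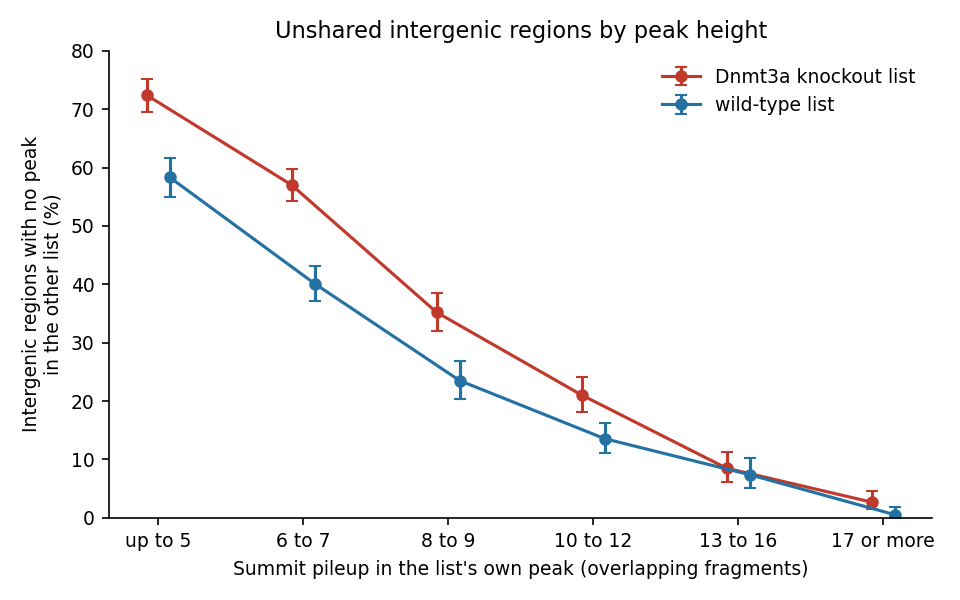
The horizontal axis gives classes of summit pileup (overlapping fragments) in a list's own peak, and the vertical axis the share of intergenic regions with no peak in the other list (%). Points are the knockout and wild-type lists and bars exact 95% binomial intervals; both lines fall with pileup and the knockout point is above the wild-type point in every class, with intervals that overlap from a pileup of 13 on.

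The ratio of members to wild-type-only intergenic regions was 1.62 (interval 1.51 to 1.74). It was 1.49 (1.38 to 1.61) at gene ends and 1.79 (1.68 to 1.90) inside genes. With the 17170 strongest knockout peaks alone, as many as the wild-type list holds, the intergenic ratio was 1.03 (0.957 to 1.11), a value that the equal lengths themselves bring near to 1. With a −log10 q of at least 10 the ratio was 2.55 (181 against 71, interval 1.93 to 3.40), and with at least 15 it was 7.67 (23 against 3, 2.32 to 39.9). Such a limit need not be equally strict in both lists. A pileup of at least 10 was reached by nearly the same share of both classes, as given above. One of at least 15 was reached by 27 members (1.36%, interval 0.899 to 1.97) and 6 wild-type-only regions (0.491%, 0.180 to 1.06). The 181 and 23 members above the limits on −log10 q are 2.95% and 0.375% of all intergenic regions. Members outnumbered wild-type-only regions on all 20 chromosomes, from 33 against 30 on X (ratio 1.1, interval 0.650 to 1.87) to 113 against 53 on chromosome 8 (2.13, interval 1.53 to 3.01). On chromosomes 7, 15, 16, 17 and X the interval includes 1.

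The strongest member lay 40.5 kb upstream of Vav3, which encodes a guanine nucleotide exchange factor (chr3:109299789-109300014). Its summit pileup was 19 over a local background of 0.36, the −log10 q 22.9, and the nearest wild-type peak 100.7 kb away. Next came a region 209 kb downstream of the corepressor gene Tle3 (chr9:61627832-61628043, pileup 17, −log10 q 20.5). The third lay 96.3 kb downstream of the heparan sulfate sulfotransferase gene Hs3st3a1 (chr11:64619115-64619268, pileup 16, −log10 q 20.05). All 3 stood at least 18.4 kb from any wild-type peak.

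The Inpp5a member, 28.8 kb upstream of this inositol phosphatase gene and inside the non-coding gene Gm32571 (chr7:139360059-139360259, pileup 19), lay 1.04 kb from a shared region. The member nearest to Efnb2, an ephrin gene 1144 kb away, was inside the non-coding gene Gm30954 (chr8:7472617-7472803, pileup 18), with a shared region 0.745 kb off. Unc13c, a gene of synaptic vesicle priming, had a member 17.1 kb downstream (pileup 15, −log10 q 19.1), and the neurotrophin receptor gene Ngfr one 33.4 kb upstream (pileup 17, 19.1). A member 5.68 kb upstream of Ilrun reached a pileup of 18. Near the cytokine gene Osm, at 3.82 kb, the pileup was 25 over a background of 1.5 (chr11:4232700-4232970, −log10 q 18.5), and a wild-type peak lay 3.56 kb away. The tenth, 61.4 kb upstream of Sestd1 (chr2:77342072-77342197), had a pileup of 13, a background of 0.15, and its nearest wild-type peak 667 kb away. For comparison, the strongest wild-type-only intergenic region, 34.1 kb from Lrrc32, had a pileup of 19 and a −log10 q of 19.9.

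Of the 23 members with a −log10 q of at least 15, 2 had a wild-type peak within 1 kb and 10 within 10 kb. Of the same 23, 7 lay within 10 kb of a protein-coding gene and 5 over 100 kb away. A pair of them are named after their values were seen. One lay 263 kb from Gata3, a transcription factor gene of lymphocytes (chr2:9594051-9594248, pileup 14, −log10 q 17.9), with its nearest wild-type peak 285 kb away. The other lay 27.8 kb from Tent5c (chr3:100440090-100440250) with a pileup of 21, and 1.34 kb from a wild-type peak.

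The median distance to the nearest protein-coding gene was 21805 bp for members (quartiles 7634.5 and 57404 bp), 20593 bp for wild-type-only and 22142 bp for shared regions. Within 10 kb of a gene were 30.8% (interval 28.8 to 32.9), 29.6% and 30.0%. Over 100 kb away were 14.4% of members (12.9 to 16.05), 16.1% of the wild-type-only class (14.1 to 18.3) and 17.4% of the shared class (16.02 to 18.8). From any protein-coding gene 28 members lay over 500 kb away. Between 100 and 500 kb were 13.01% of members (11.6 to 14.6), 14.6% of the wild-type-only and 16.1% of the shared class (14.8 to 17.5), so that there the intervals of members and shared regions do not overlap. Among unshared regions the knockout-only share was between 59.2% and 64.2% in each of 5 distance bands. Where the strand of the nearest gene was known, 54.2% of 1523 members were upstream of it, against 53.1% of wild-type-only and 54.5% of shared regions.

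**Figure D3:**
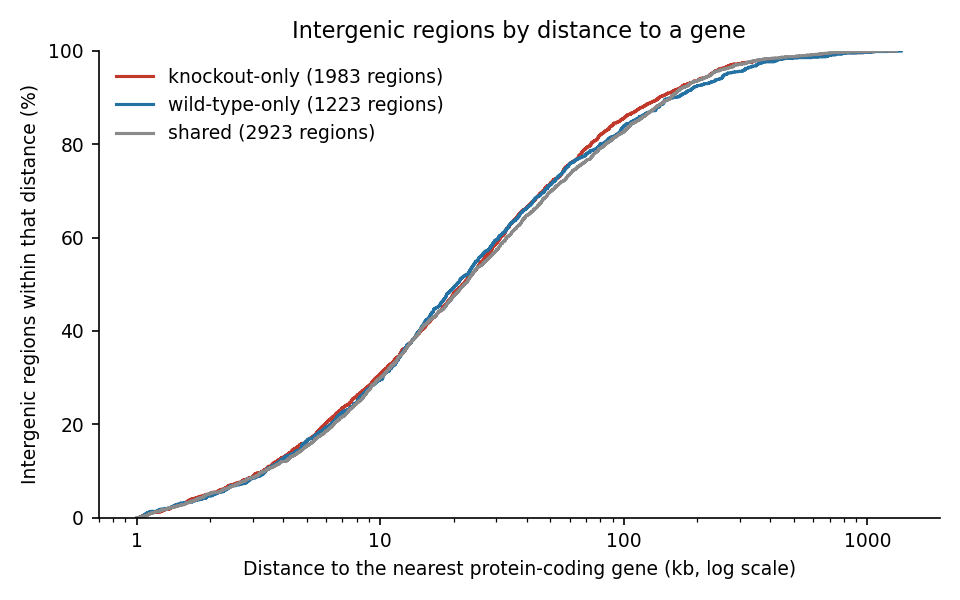
The horizontal axis is the distance to the nearest protein-coding gene (kb, log scale) and the vertical axis the share of intergenic regions within that distance (%). The lines are 1983 knockout-only, 1223 wild-type-only and 2923 shared regions with medians of 21805, 20593 and 22142 bp.

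The member farthest from a protein-coding gene was 1318 kb from Olfm4, but only 0.166 kb from a wild-type peak (chr14:81341485-81341584, pileup 6). That nearest to G6pd2, at 1209 kb, stood 0.035 kb from a wild-type-only peak (pileup 7). After the Efnb2 region followed one inside the immunoglobulin heavy chain locus, 1066 kb from Adam6a (pileup 7), and one 1031 kb from Lrrc4c (pileup 13, background 0.89). At the other end, a member just outside the 1 kb limit lay 1.024 kb from Flt3l, a cytokine gene (pileup 10). Just inside the limit, and so not members, were knockout-only regions 0.99 kb from the AP-1 gene Jun (pileup 17) and 0.978 kb from the phosphatase gene Cdc25a (pileup 5).

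Most members, 1358, had no wild-type peak within 10 kb. The median distance to the nearest wild-type peak was 21100 bp. For wild-type-only regions the median distance to a peak of the longer knockout list was 15918 bp. A peak of the other list lay within 10 kb of 31.5% of members and 38.1% of wild-type-only regions. A wild-type peak lay within 1 kb of 171 members (8.62%, interval 7.42 to 9.95) and within 50 bp of 48. In the mirror class, 146 of 1223 wild-type-only regions had a knockout peak within 1 kb (11.9%, 10.2 to 13.9). A member 5.28 kb from Frmd8 had the highest local background, 6.80 fragments, with a pileup of 27 and a fold of only 3.59 (chr19:5845591-5845690). Members near Alyref2 (background 2.51) and Egr1 (2.43) followed.

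Some members neighboured each other. Of 1983, 232 (11.7%, interval 10.3 to 13.2) lay within 10 kb of another, in 110 pairs and 4 groups of 3. This share was not computed for the other classes, so that it cannot be called low or high. In 29 cases the neighbours were within 200 bp, and such a pair may be 1 site called as 2. Of the groups of 3, one lay 14.8 to 25.02 kb from Tmem158 (pileups 11, 6 and 7), one 6.74 to 13.2 kb from Mcur1 and inside the non-coding gene Gm32939 (5, 7 and 7), and one 13.1 to 15.1 kb upstream of Usp6nl inside A230108P19Rik (6, 6 and 7).

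Genes that do not encode proteins overlapped 439 members (22.1%, interval 20.3 to 24.0), against 24.4% of wild-type-only and 24.7% (23.1 to 26.3) of shared intergenic regions. Long non-coding RNA genes made up most of this, with 396 members (19.97%, 18.2 to 21.8) against 22.5% in both other classes. The gene with most was Pvt1, a long non-coding RNA gene beside Myc whose body holds enhancers. It held 6 members, 1 wild-type-only and 2 shared regions. The strongest Pvt1 member had a pileup of 11 over a background of 0.13 (chr15:62046390-62046565, −log10 q 15.4), and the next had pileups of 15 (chr15:62222873-62223059, 12.5) and 10 (chr15:62079496-62079658, 11.9). The 3 others had pileups of 11, 6 and 6. Shared Pvt1 regions reached 14 and 15, so the highest member was as high as the shared ones. At the lower end of Myc itself the knockout list had a further peak with a pileup of 13 (chr15:61985446-61985552), which is at a gene and so no member, and the wild-type list had none.

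Morrbid held 4 members, 1 wild-type-only and 2 shared regions. Its member at the start, whose sequence is printed above, had a pileup of 10, and 2 more stood side by side farther inside the gene (pileups 9 and 10). The fourth, 156 kb from Bcl2l11, had a pileup of 7. The shared regions in this gene were no higher, at 7 and 6. A230108P19Rik also held 4 members against 1 wild-type-only and 2 shared regions, and Banf2os 3 against 0 and 1. Zmiz1os1 had 2 (pileups 16 and 15), and so had Dleu2, a host gene of microRNAs (11 and 10, side by side). Single members lay in Airn, the imprinted antisense RNA of Igf2r (pileup 6), and in Ifngas1, 71.1 kb from the interferon gamma gene Ifng (pileup 6).

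The 5 strongest members over non-coding genes were the Gm32571 and Gm30954 regions above, then the pseudogene Gm8091 (pileup 12, −log10 q 16.9), Map2k3os, an antisense gene 4.48 kb from Map2k3 (pileup 17, 16.3), and the glutamate transfer RNA gene n-TEctc9 (pileup 12, 15.6). Transfer RNA genes overlapped 9 members, 3 wild-type-only and 6 shared intergenic regions. In the antigen receptor loci, which mast cells do not rearrange, the T cell receptor beta locus Tcrb had 4 members, 2 wild-type-only and 5 shared regions, and the heavy chain locus Igh 3, 0 and 5. Member pileups there were 4 to 7. Tcra had 1 member against 3 wild-type-only regions, and Igk 1 of each.

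No member overlapped a microRNA gene (0 of 1983, interval 0 to 0.186%), nor did any wild-type-only intergenic region (0 of 1223). Among shared intergenic regions 3 of 2923 did (0.103%). Within 10 kb of 42 such genes lay 32 of the 1983 members, against 18 of 1223 wild-type-only and 58 of 2923 shared regions near such genes. The highest of these 32 members lay 532 bp from Mir23a (chr8:84207863-84207986, pileup 17 over a background of 1.71, −log10 q 8.87). Mir23a forms a cluster with Mir27a, Mir24-2 and Mir3074-2. These microRNAs are known in blood cell development, and 3 mature forms are shown because the highest of these members lies beside their genes. Capitals mark the seed, bases 2 to 8, which pairs with target RNAs and differs between all 3.

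mmu-miR-23a-3p: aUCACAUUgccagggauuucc
mmu-miR-27a-3p: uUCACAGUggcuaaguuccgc
mmu-miR-24-3p: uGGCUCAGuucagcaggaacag

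Within 10 kb the same cluster also had 3 shared regions (pileups 18 to 21) and 1 wild-type-only region (14). The cluster of Mir17, Mir18, Mir19a, Mir20a, Mir19b-1 and Mir92-1, known for its action in blood cancers, had a member 2686 bp from Mir17 (pileup 9) and a wild-type-only region at 1371 bp (11). Single members lay within 10 kb of Mir34a (pileup 7), Mir196b (6), Mir26b (10), Mir181c and Mir181d (6), and the let-7 genes Mirlet7d, Mirlet7f-1 and Mirlet7a-1 (4). Mir7671, beside the interferon regulator gene Irf1, had a member at 222 bp (pileup 8) and a shared region over it. The remaining genes, 285 to 9895 bp from a member, were Mir7094-2, Mir6347, Gm51286, Mir760, Mir1892, Mir7676-1, Mir6516, Mir6396, Mir3069, Mir7688, Mir8114, Mir6412, Mir5114, Mir7646, Mir6372, Mir8094, Mir7045, Gm51264, Mir327, Mir1941, Gm51276, Mir8098 and Mir7680.

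Each member was given to the closest protein-coding gene up to 100 kb away, which need not be the gene it acts on. This placed 1697 members (85.6%) at 1447 genes, of which 1243 had 1 member, 171 had 2, 25 had 3, 5 had 4, 1 had 5 and 2 had 6. Irs2, the insulin receptor substrate gene, had 6 members, 1 wild-type-only and 3 shared intergenic regions. Its members had pileups of 9, 7, 7, 6, 6 and 5 at 12.9 to 89.6 kb on both sides. Its shared regions had 30, 18 and 10, and its wild-type-only region 9. At S1pr1, the sphingosine 1-phosphate receptor gene of lymphocyte and mast cell movement, there were 6 members (pileups 9, 8, 7, 6, 6 and 5) at 36.9 to 67.5 kb on both sides. There 1 wild-type-only region (pileup 6) lay at 84.4 kb, and no region was shared within 150 kb of the gene. Irf2bp2, a transcriptional corepressor gene, had 5 members and no other intergenic region, one of them 2.39 kb upstream with a pileup of 18 over a background of 1.95.

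The MAP kinase phosphatase gene Dusp4 had 4 members (pileups 9, 9, 8 and 5), all on one side at 25.4 to 67.1 kb, and 1 shared region. Trim2, a ubiquitin ligase gene, had 4 (10, 8, 5 and 5) against 1 wild-type-only and 1 shared region. Ephb3, an ephrin receptor gene, had 4 (pileups 4 to 8), Fam204a 4 (4 to 6) and Usp6nl 4 (6 and 7). Sema4f, a semaphorin gene, had 3 members, each with a pileup of 10, of which 1 is the promoter of 2310069B03Rik printed above. Myc had 3, all in Pvt1. Among the assigned genes 35.2% had a shared region at one of their ends (interval 32.8 to 37.8), against 35.7% of genes with wild-type-only and 37.0% with shared intergenic regions, and 28.6% of all protein-coding genes.

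**Figure D4:**
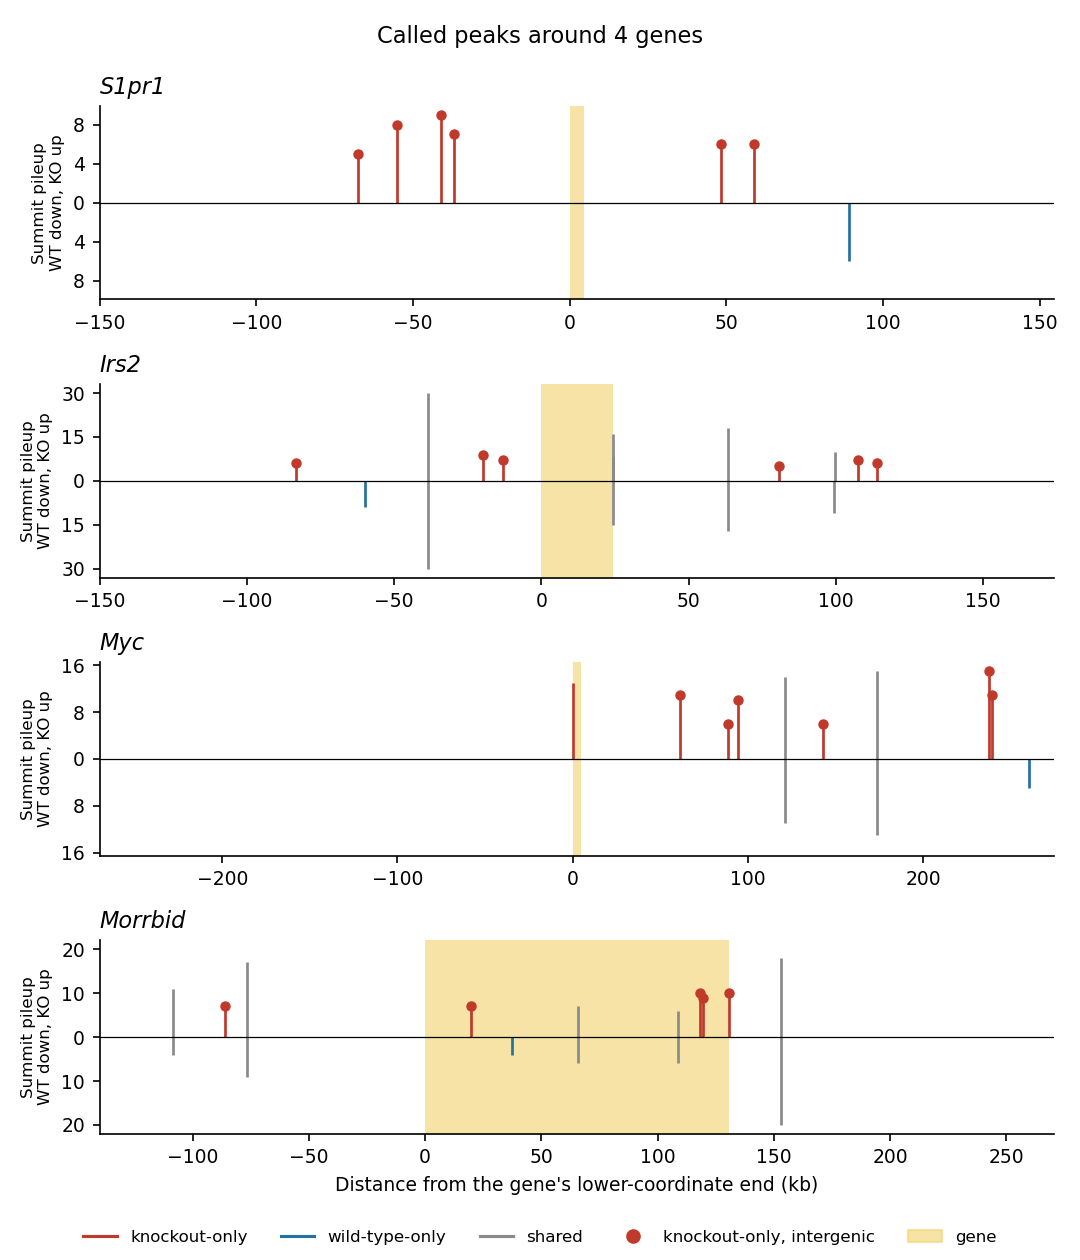
Called peaks around S1pr1, Irs2, Myc with Pvt1 to its right, and Morrbid, by distance from the gene's lower-coordinate end (kb), with summit pileup of knockout peaks drawn upward and of wild-type peaks downward. Dots are the intergenic knockout-only regions (6 at S1pr1, 6 at Irs2, 6 at Myc and 5 at Morrbid, 1 of them outside the gene), grey lines are shared peaks and the shaded box is the gene.

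Of the members, 87 were assigned to genes of the 9 functional lists, against 33 wild-type-only and 120 shared intergenic regions. Knockout-only regions were thus 72.5% of the unshared ones there (interval 63.6 to 80.3), beside 62.3% (60.5 to 64.1) over all genes. The lists were drawn up with earlier results of these data known, so this share is no independent evidence. A member was found at 6.69% of all 21631 protein-coding genes, a wild-type-only region at 4.30% and a shared intergenic region at 8.71%.

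**Figure D5:**
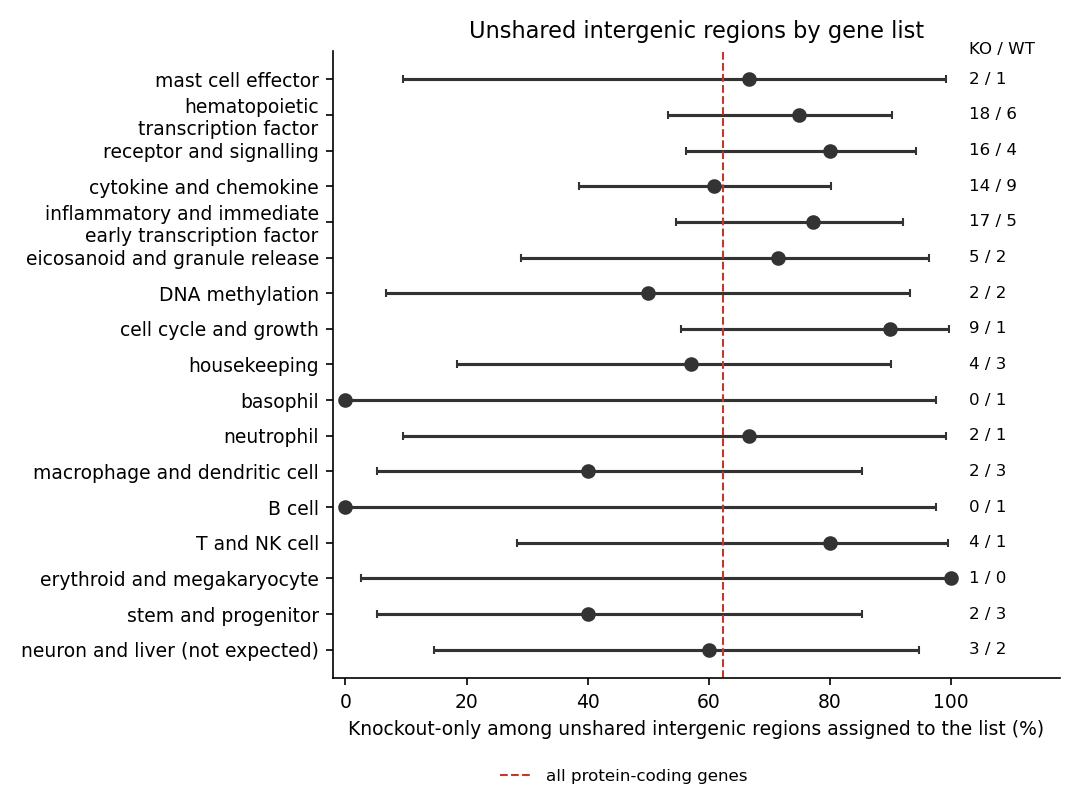
For each gene list, the horizontal axis is the share of unshared intergenic regions assigned to its genes that are knockout-only (%), with exact 95% binomial intervals, and the numbers at the right are knockout-only and wild-type-only regions. The dashed line is the share over all protein-coding genes, 62.3%, and every interval includes it.

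Transcription factors of blood cells had 18 members and 6 wild-type-only regions (75%, interval 53.3 to 90.2), with a member at 12 of 33 genes and 33 shared regions. A member was found at 36.4% of these genes, a wild-type-only region at 18.2% and a shared intergenic region at 45.5%. Cebpb, a C/EBP factor gene, had 3 members and 4 shared regions: the members lay 7.59, 63.5 and 69.7 kb downstream with pileups of 6, 8 and 8, below the shared maximum of 13. Bhlhe40, a basic helix-loop-helix factor gene, had 3 (pileups 13, 10 and 8) and Ikzf2, an Ikaros family gene, 3 (10, 7 and 5). Inflammatory and immediate early factors had 17 against 5 (77.3%, interval 54.6 to 92.2), at 13 of 34 genes. In this list the shares of genes were 38.2%, 8.82% and 41.2%, in the same order. Nfatc1, a calcium-responsive factor gene, had the member with the highest −log10 q there, at 1.91 kb with a pileup of 15 (−log10 q 14.2). Tnfaip3, an inhibitor of NF-κB signalling, had 2 members (15 and 13) 49.9 and 51.7 kb upstream against 2 wild-type-only and 2 shared regions, and Egr1 2 (14 and 10).

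Receptor and signalling genes had 16 members and 4 wild-type-only regions (80%, interval 56.3 to 94.3). A member was found at 12 of 41 genes (29.3%), a wild-type-only region at 9.76% and a shared intergenic region at 26.8%. Lyn, the kinase gene of IgE receptor signalling, had 2 (pileups 10 and 7), and the feedback inhibitor gene Socs3 2 (7 and 6). Cytokine and chemokine genes had 14 against 9 (60.9%, interval 38.5 to 80.3). Here the shares of genes were 40% for members, 23.3% for wild-type-only and 33.3% for shared regions. Ccl1 had 2 members (14 and 6), the higher of them 0.087 kb from a wild-type peak, beside a shared region with a pileup of 33. Xcl1 had 2 members (pileup 5 each) and 2 wild-type-only regions (6 each), and Osm the 1 described above. Cell cycle and growth genes had 9 against 1 (90%, interval 55.5 to 99.7), at 6 of 26 genes. Besides the 3 of Myc, these were 2 at the CDK inhibitor gene Cdkn2a (7 and 5), the second 0.015 kb from a wild-type peak, and single members such as that of Ccnd2, a cyclin gene (7 at 10.9 kb). This list fell to 3 against 1 when regions within 1 kb of genes of every type were left out. With assignment within 50 kb it fell to 5 against 1. Members and shared regions were each found at 23.1% of its genes, and wild-type-only regions at 3.85%.

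In the list of mast cell effector genes 2 of 22 had a member (9.09%), in that of eicosanoid and granule release genes 4 of 24 (16.7%) and in that of DNA methylation genes 2 of 16 (12.5%). None of these shares is below the 6.69% of all protein-coding genes. A wild-type-only region was found at 4.55%, 8.33% and 12.5% of the genes of these lists, beside 4.30% of all protein-coding genes. For shared intergenic regions the shares were 36.4%, 16.7% and 12.5%, beside 8.71%. Effector genes had 2 members against 1 wild-type-only and 8 shared regions. Of these members, one lay 11.9 kb downstream of the chymase gene Cma1 (pileup 7). The other lay 8.18 kb upstream of Slc18a2, the vesicular monoamine transporter gene (9). Eicosanoid and granule release genes had 5 against 2, with 2 at the syntaxin gene Stx11 (10 and 7) and 1 each at Stxbp2 and Itpr1 (5 each). DNA methylation genes had 2 against 2, namely one 38.1 kb upstream of Tet2, which encodes an enzyme that oxidises methylcytosine (pileup 6), and one 6.78 kb upstream of Gadd45g (6). Housekeeping genes had 4 against 3, and of these members 3 were at Ywhaz (10, 8 and 6) and 1 at Actb (12). The highest Ywhaz member lay 0.058 kb from a wild-type peak and the Actb member 0.044 kb. The list of blood microRNA genes, 22 of 24 in the gene table, receives no region by this assignment, which uses protein-coding genes.

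A member was found at 3 of 15 T and NK cell marker genes (20%), 3 of 16 neuron and liver genes (18.8%), 2 of 13 stem and progenitor genes (15.4%) and 2 of 15 neutrophil genes (13.3%). Of 15 macrophage and dendritic cell genes and of 15 erythroid and megakaryocyte genes, 1 each had one (6.67%), near the share of all protein-coding genes. A wild-type-only region was found at 6.67% of T and NK cell, 12.5% of neuron and liver, 15.4% of stem and progenitor and 6.67% of neutrophil genes. For shared regions these were 20%, 0%, 15.4% and 26.7%. Macrophage and dendritic cell genes had 20% and 13.3%, erythroid and megakaryocyte genes 0% and 26.7%. Neutrophil genes had 2 members, at S100a8 (pileup 8) and Cebpe (8), and macrophage and dendritic cell genes 2, both at Marco (7 and 4). T and NK cell genes had 4, with 2 side by side at Tcf7 (5 each) and 1 each at Eomes (6) and Gata3 (4). There was 1 at an erythroid and megakaryocyte gene, Hbb-bt (8), 2 at stem and progenitor genes, Angpt1 (8) and Hoxa9 (6), and 0 at 5 basophil and 12 B cell genes. Neuron and liver genes had 3 at Gad2 (6), Cyp7a1 (5) and Gria2 (6). Wild-type-only regions of these lists numbered 1 for neutrophil, 3 for macrophage, 1 for T and NK cell, 0 for erythroid, 3 for stem, 1 for basophil, 1 for B cell and 2 for neuron and liver genes. The members at these marker genes had pileups of 4 to 8, beside a median of 6 and an upper quartile of 8 over all members.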

How the data were processed

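ATAC-seq peak lists of 1 wild-type and 1 Dnmt3a knockout culture were analysed. Per the labels' protocols, nuclei were isolated with 0.1% Igepal, transposed with a home-made Tn5 and read once from one end for 50 bp, at a stated depth of 10 M reads. The submitters' processing notes name Trimmomatic, Bowtie2, MACS2 and the mouse build mm10 (GRCm38). Their versions and settings, and whether reads were moved to the Tn5 cut, are not stated there, and such a move would displace peak edges by a few bases. The authors deposited 1 list of peaks for each library, holding per peak a score, the fold enrichment, −log10 p and −log10 q. That score, as deposited, equalled the −log10 q multiplied by 10 in 100% of peaks. The fold was read as the ratio of pileup to local background, each plus 1, and the p as a Poisson tail. Together these gave a whole-number summit pileup for 100% of peaks (tolerance 0.001 in −log10 p). They rank peaks within a list, and a limit on them is not equally strict in both.

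Coordinates are 1-based on mm10. Genes came from a RefSeq table of GRCm38.p6 (21631 protein-coding genes on these chromosomes), which gives no exons. The strand was known for 17274 of them. Distances run between facing ends. No genome sequence was used here, so sequence is shown only for RefSeq promoter windows and microRNAs. Scripts ran under Python 3.11.15 with SciPy 1.17.1, pandas 2.3.3 and NumPy 2.4.6. The merging, classing and pileup steps were tested on simulated data. The members and lists were chosen with earlier results of these data known. The text names the 10 strongest and 5 farthest members, the 10 genes with most members, up to 3 genes per list by members and then −log10 q, the 5 strongest over non-coding genes, all microRNA genes within 10 kb, the 3 leading groups and 2 regions on each side of the 1 kb limit, except 1 item that is not reported here. Other names were chosen after their values were seen. Alternatives are listed with their effects in the closing section.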

Additional observations from a re-analysis of the deposited data

How the results depend on the processing

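With 1 library per genotype no result has a replicate check, so leaving out replicates was not possible. No paired analysis was possible because only 1 culture of each genotype was profiled. The wild-type signal at members was not measured here, since the lists hold called peaks only, and the read totals behind the lists are unknown. Of 80 recomputed values outside the gene lists, 15 left their interval, and no count of members moved beyond 1.5 times. The cause of these shifts was not tested, except where the setting itself sets it. The ratio of members to wild-type-only regions was 1.76 when both lists were limited to a −log10 q of 5 or more. It was 1.03 at equal list lengths, which that setting fixes, and 1.46 with a reciprocal overlap of 50%. The members' share of intergenic regions was 29.5% with the −log10 q limit on one side only, 26.2% with equal numbers, 36.1% with the reciprocal overlap and 29.6% with no wild-type peak within 1 kb. Members within 10 kb of a gene were 25.5% with a gene limit of 2.5 kb, which removes the nearest. Those with a wild-type peak within 1 kb were 6.90% with the limit in both lists and 24.1% with the reciprocal overlap, which counts partly overlapping peaks as unshared. Members within 10 kb of another were 9.91% with the limit in both lists, 9.16% on one side, 8.96% with equal numbers, 14.1% with the reciprocal overlap and 10.2% with genes of every type. Of 187 list counts, 28 moved by over 1.5 times, and the balance turned in 5. These were neutrophil genes (0 against 1 beyond 2.5 kb) and stem and progenitor genes (2 against 1 with either limit on −log10 q, 1 against 0 with genes of every type, 5 against 4 with genes at any distance). Summits within 200 bp and leaving out chromosome X moved no value outside the lists beyond its interval. Alternatives for sequence composition were not run, as no genome was used.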
